A study of Mus musculus with 10 samples.

Results

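Undifferentiated spermatogonia (undiff. SpG) are the mitotic germ cells of the testis that lie on the basement membrane of the tubule, and they include the stem cells of spermatogenesis. They were described here in control mouse testes from 2 assays of single nuclei: RNA sequencing (scRNA-seq) and ATAC-seq (scATAC-seq), which reads accessible chromatin by transposase insertion. The cells were those that the study named undiff. SpG: 1292 of 45250 cells by RNA, all in cluster 16 of the scRNA-seq, and 10999 of 343866 cells by chromatin, all in cluster 21 of the scATAC-seq. By RNA, 1 of the 1292 cells came from the Nfya-CKO library described next and 1 had no library name. Pooled RNA and scATAC values per gene of undiff. SpG were set against 8 other germ cell populations and 2 somatic populations. Both kinds of pooled value carry the RNA names, so the scATAC values need not be those of the 10999 cells.

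Nuclei came from whole testes of wild-type C57BL/6J mice at 11, 17 and 25 days postpartum (dpp), of 8-week-old Stra8-Cre mice without a floxed allele (Cre/+) and of 8-week-old Nfya fl/fl; Stra8-Cre mice (Nfya-CKO), in which the Stra8 promoter drives Cre in spermatogonia. Each age or genotype was 1 library per assay, so age, genotype and library cannot be told apart and no test between libraries was possible. The other germ cells were differentiating spermatogonia, or diff. SpG, spermatocytes at preleptotene (pL), early leptotene to zygotene (eL/L/Z), leptotene to early pachytene (L/Z/eP), middle and late pachytene (mP/lP) and diplotene (D), and spermatids at the round (RS) and elongating (ES) stage. The somatic populations were Sertoli cells and other somatic cells, of which 78.8% came from the Nfya-CKO library. A separate population of 491 spermatogonia, all from the library labelled Nfya-CKO, is called Nfya-CKO SpG here and given only beside the control values.

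In the mouse testis, undiff. SpG divide in response to glial cell line-derived neurotrophic factor (GDNF) from Sertoli cells, which binds the co-receptor GFRA1 and signals through the receptor tyrosine kinase RET. Transcription factors such as ZBTB16 (PLZF), SALL4 and FOXO1 keep the pool, and retinoic acid moves the cells on to the KIT-positive differentiating state and later to meiosis. The heterotrimer NFY, whose subunit NFYA the study deleted, binds the CCAAT box of promoters.

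Starts of 6 genes whose RNA and scATAC values were both highest in undiff. SpG are shown, since these genes carry the pattern described below: the GDNF co-receptor gene Gfra1, the transcription factor genes Neurog3, Egr4 and Glis3, the piRNA pathway gene Piwil4 and the translational repressor gene Trim71. Each runs 5′ to 3′ on the strand of the gene from 250 bases before to 50 bases after the start given by RefSeq (GRCm38.p6), and capitals mark CCAAT or its reverse complement ATTGG.
Gfra1, chr19:58455349-58455648, strand -: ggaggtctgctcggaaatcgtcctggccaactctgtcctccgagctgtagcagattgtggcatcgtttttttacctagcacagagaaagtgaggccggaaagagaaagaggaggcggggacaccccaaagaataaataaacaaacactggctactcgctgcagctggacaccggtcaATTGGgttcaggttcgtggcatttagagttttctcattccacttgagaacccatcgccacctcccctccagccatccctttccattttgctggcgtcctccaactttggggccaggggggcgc
Neurog3, chr10:62132840-62133139, strand +: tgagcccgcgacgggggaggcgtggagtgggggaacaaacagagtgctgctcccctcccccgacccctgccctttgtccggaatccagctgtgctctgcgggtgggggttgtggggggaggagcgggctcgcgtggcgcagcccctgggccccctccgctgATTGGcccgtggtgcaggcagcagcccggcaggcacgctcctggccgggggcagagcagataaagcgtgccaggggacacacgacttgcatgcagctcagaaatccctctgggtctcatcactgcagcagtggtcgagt
Egr4, chr6:85513540-85513839, strand -: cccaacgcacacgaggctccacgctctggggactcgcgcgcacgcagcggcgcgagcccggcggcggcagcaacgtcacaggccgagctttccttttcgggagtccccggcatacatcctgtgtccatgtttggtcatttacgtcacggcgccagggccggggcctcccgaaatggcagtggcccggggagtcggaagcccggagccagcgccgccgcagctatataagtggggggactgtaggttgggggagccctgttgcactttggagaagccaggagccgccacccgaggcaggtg
Glis3, chr19:28680028-28680327, strand -: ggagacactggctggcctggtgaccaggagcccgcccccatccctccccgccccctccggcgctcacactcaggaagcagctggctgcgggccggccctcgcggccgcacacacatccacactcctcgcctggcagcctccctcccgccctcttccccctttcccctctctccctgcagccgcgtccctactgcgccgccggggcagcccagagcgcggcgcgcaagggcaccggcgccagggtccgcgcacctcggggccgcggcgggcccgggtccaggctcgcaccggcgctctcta
Piwil4, chr9:14740623-14740922, strand -: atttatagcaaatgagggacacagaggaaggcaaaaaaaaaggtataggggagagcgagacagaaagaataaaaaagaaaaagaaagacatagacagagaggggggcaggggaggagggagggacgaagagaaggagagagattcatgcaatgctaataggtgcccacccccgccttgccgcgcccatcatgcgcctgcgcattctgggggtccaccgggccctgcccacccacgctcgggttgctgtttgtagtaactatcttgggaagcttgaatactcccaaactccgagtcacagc
Trim71, chr9:114564320-114564619, strand -: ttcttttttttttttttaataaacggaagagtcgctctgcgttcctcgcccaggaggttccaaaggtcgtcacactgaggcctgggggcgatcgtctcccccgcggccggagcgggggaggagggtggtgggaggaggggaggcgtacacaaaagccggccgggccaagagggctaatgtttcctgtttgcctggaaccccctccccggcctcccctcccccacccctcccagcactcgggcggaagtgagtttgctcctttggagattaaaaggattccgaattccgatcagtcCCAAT

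Gfra1 holds ATTGG beginning 73 bases before its start and Neurog3 holds it 89 bases before, while Trim71 holds CCAAT 45 bases after its start. These letters do not occur in the windows shown for Egr4, Glis3 and the first of 2 starts of Piwil4. In either orientation they occur in 37.4% of all 32851 windows of this length in the table, and in 39.0% of the 11166 genes that passed the RNA level filter described below and had a window. Of the 180 genes with RNA at least 2-fold above all other populations, 121 had a window and 36 of these (29.8%) held the letters.

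The share of cells named undiff. SpG was highest at 11 dpp in both assays. By RNA they made up 10.3% of 6273 cells at 11 dpp (646 cells, exact Clopper-Pearson 95% interval 9.56-11.1%), 6.99% of 3746 cells at 17 dpp (262 cells, 6.20-7.86%), 1.55% of 18039 cells at 25 dpp (280 cells, 1.38-1.74%) and 0.851% of 11991 cells of Cre/+ (102 cells, 0.694-1.03%). The intervals of the 4 control libraries did not overlap, but they cover counting error only. Over germ cells alone the 11 dpp share was 20.5%. Of the cells of the Nfya-CKO library, 1 of 5152 had the name and 491 were named Nfya-CKO SpG. Juvenile libraries gave 92.0% of all undiff. SpG, and the pooled values below are therefore mostly those of juvenile cells. Shares of cells do not separate fewer undiff. SpG from more cells of other kinds.

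By chromatin the share was 7.6% at 11 dpp (6140 cells, 7.42-7.79%), 4.33% at 17 dpp (3108 cells, 4.18-4.48%), 0.0624% at 25 dpp (61 cells, 0.0477-0.0801%) and 2.15% in Cre/+ (1690 cells, 2.05-2.26%). Among cells with 3000 fragments or more, these shares were 16.0, 8.04, 0.0821 and 3.37%. None of 14920 cells of the Nfya-CKO library had the name, which allows a share of up to 0.0201% of cells so named, but 2923 cells of the scATAC-seq were named Nfya-CKO SpG instead, so the limit is one on the name. The order of 25 dpp and Cre/+ was thus opposite in the 2 assays.

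**Figure D1:**
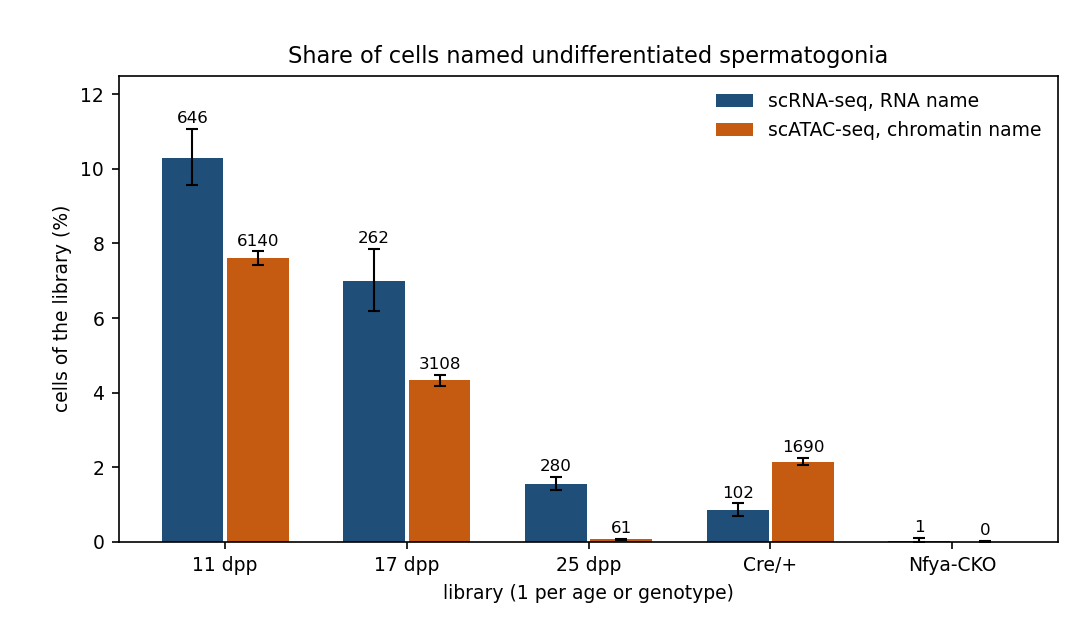
Percent of the cells of each library that were named undiff. SpG, by RNA in scRNA-seq (blue) and by chromatin in scATAC-seq (orange), with exact 95% intervals and the number of cells above each bar. The bars are tallest at 11 dpp (10.3% and 7.6%), and at 25 dpp the chromatin bar nearly vanishes (61 cells) while the RNA bar stands at 1.55%.

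The 2 names were compared in the 1230 undiff. SpG of the scRNA-seq that also had a scATAC-seq profile. At 11 dpp 592 of 626 (94.6%, 92.5-96.2%) and at 17 dpp 235 of 250 (94.0%, 90.3-96.6%) were undiff. SpG by chromatin too, as were 85 of 99 (85.9%, 77.4-92.0%) in Cre/+. At 25 dpp only 5 of 254 were (1.97%, 0.642-4.53%), and 208 of these cells (81.9%) were named eL/L/Z by chromatin and 31 (12.2%) L/Z/eP. In the other libraries, the chromatin name was Sertoli cells for 32 cells at 11 dpp and 9 at 17 dpp, and mP/lP for 13 in Cre/+. For undiff. SpG the 25 dpp library therefore stood apart from the others: over all libraries the 2 names were the same in 74.6% of cells, and without 25 dpp in 93.4%. Sertoli cells of the 25 dpp library had the same name in both assays in 12 of 13 cells, as did 66.4% of its mP/lP, against 75.9-88.2% in the other libraries that held such cells, and 74.5% of its eL/L/Z, against 8.48-41.9%. For eL/L/Z the names thus differed most in the other libraries. Its diff. SpG were named eL/L/Z by chromatin in 81.3% of 96 cells and its pL in 82.9% of 35, against 45.5-46.8% and 33.3-49.5% in the other libraries. The pooled gene values cannot be split by library, so they could not be recomputed without the 25 dpp cells, which are 21.7% of undiff. SpG by RNA.

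**Figure D2:**
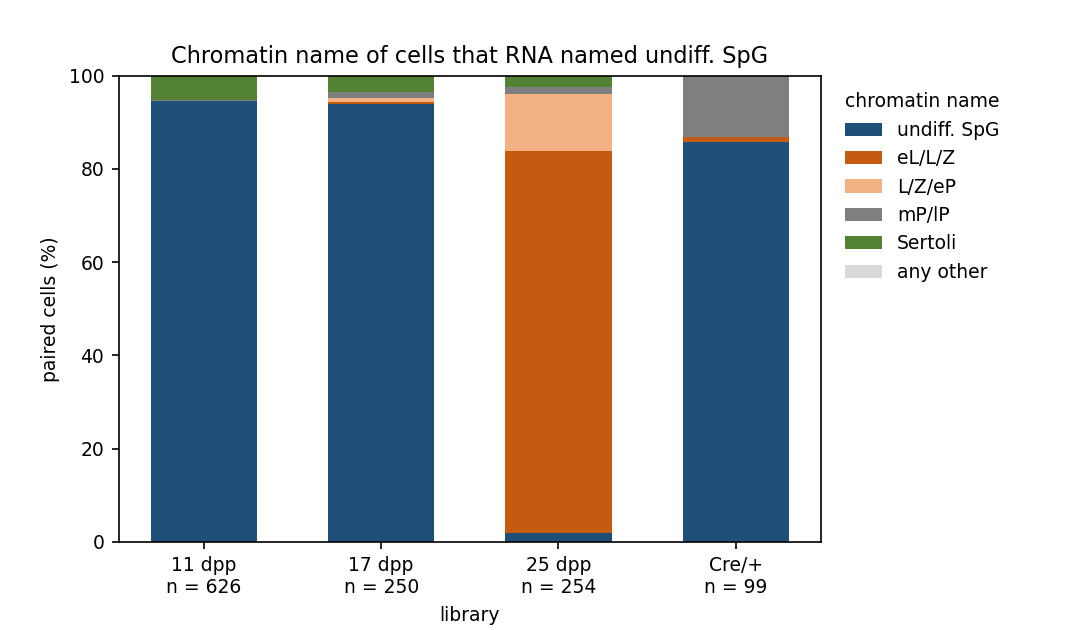
Chromatin name of the cells that scRNA-seq named undiff. SpG and that had both profiles, as percent of those cells in each control library. Cells named alike fill 94.6% of the 11 dpp bar, 94.0% of the 17 dpp bar and 85.9% of the Cre/+ bar, but 1.97% of the 25 dpp bar, where eL/L/Z takes 81.9%.

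In the opposite direction, the chromatin name was wider than the RNA name. Of 2138 cells named undiff. SpG by chromatin that had an RNA name, 917 (42.9%) were undiff. SpG, 634 (29.7%) pL, 360 (16.8%) eL/L/Z and 145 (6.78%) diff. SpG. The chromatin names hold neither pL nor diff. SpG, so cells of these populations could not be named alike. In Cre/+, diff. SpG were 133 of 280 such cells (47.5%) and undiff. SpG 85 (30.4%).

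Undiff. SpG were richer in reads than the median cell of the same library. Their median was 9979.5 UMIs (unique molecular identifiers, each standing for 1 RNA molecule) and 3354 genes per cell at 11 dpp, 13833.5 and 3930.5 at 17 dpp, 5019 and 2304 at 25 dpp, and 10026 and 3839.5 in Cre/+, between 1.31 and 3.48 times the median UMIs of the same library. Medians of mitochondrial UMIs were 0.340-1.21%. Over all libraries, median UMIs were 9290 in undiff. SpG, 10904 in Sertoli cells and 18361 in Nfya-CKO SpG. They ran from 1525 in other somatic cells to 8161 in pL in the rest. High UMI counts were thus not particular to undiff. SpG. In scATAC-seq the cells named by chromatin had 11241-36395 fragments (medians of the 4 libraries), 2.30-12.6 times the library medians, with medians of 10.9-12.8 for enrichment at transcription start sites (TSS).

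The libraries shared cell numbers, which stand for barcodes. In scRNA-seq 703 numbers were in both the 11 and 17 dpp libraries, 621 in 11 and 25 dpp, 853 in 17 and 25 dpp and 3813 in Cre/+ and Nfya-CKO, against 0-19 for the other pairs; in scATAC-seq the pairs shared 26-159. Of the 1292 undiff. SpG, 420 had their number in another scRNA-seq library, in 616 pairs of cells. The undiff. SpG had more UMIs than the other cell in 600 of these pairs (medians over all pairs 17870 and 724.5), and the other cell was named eL/L/Z in 522 of the 616 and other somatic in 60. Undiff. SpG of 25 dpp went the other way with 17 dpp, where 12 of 13 had fewer UMIs than the other cell (medians 1159 and 25140) and 9 of the other cells were undiff. SpG too, and with 11 dpp 4 of 10 had fewer. Conversely, 513 eL/L/Z cells (8.99% of 5705, with a median of 699 UMIs) had the number of a richer undiff. SpG of another library. Their part in the eL/L/Z levels given below was not tested, since the pooled values cannot be recomputed.

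First come 5 markers chosen for the population. The study named its clusters from marker genes, so these RNA values do not check the name. Levels are the UMIs of a gene per 10000 as the authors pooled them for a population, and ratios are of level + 0.1. All 5 markers were higher in undiff. SpG than in any of the 10 other populations, as were 2095 of 15036 genes tested (13.9%). Zbtb16, which encodes the transcription factor PLZF, was at 8.74 in undiff. SpG and at 0.112-1.32 elsewhere, highest in eL/L/Z. Sall4, another zinc finger factor of the stem cell pool, was at 4.88 against 0.0619-1.09. Gfra1 was at 1.08 against 0.0356-0.297, and here the nearest population was RS. Ccnd2, which encodes cyclin D2, was at 10.81 and at 0.106-1.82 in the other germ cells, but Sertoli cells reached 5.24. The ubiquitin hydrolase gene Uchl1 set the population apart least, at 5.88 against 4.87 in other somatic cells and 4.79 in diff. SpG.

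The 5 genes listed as markers of differentiating spermatogonia were lower in undiff. SpG than in both diff. SpG and pL, which did not hold for all genes of retinoid signalling and differentiation. The receptor gene Kit was at 0.55, against 1.56 in diff. SpG and 2.09 in pL. Dmrtb1, a factor that acts at the switch from mitosis to meiosis, was at 0.13 against 1.04 and 1.03. The retinoic acid target Stra8 was at 2.05, below 2.59 and 4.86, and Crabp1 at 0.79, below 1.43 and 1.57. Cenpa, a histone variant of centromeres, was nearly level at 1.04 against 1.17 and 1.31.

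Genes above all other populations were counted among the 15036 genes whose mean over the 11 populations reached 0.05 UMIs per 10000. RNA of 180 genes (1.2%) was at least 2-fold above each of the 10 other populations, and RNA of 2 genes (0.0133%) at least 2-fold below each. This is a description with no test, since these RNA values also made the clusters. With a pseudocount of 0.5, 52 genes were above and 0 below, and with a mean of at least 0.2, 95 were above. With Nfya-CKO SpG and the unknown cells among the populations compared, 28 were above. For 59 of the 180 genes the next population was eL/L/Z, for 33 pL, for 28 other somatic cells and for 23 diff. SpG. Together the 180 genes took 268 UMIs per 10000 in undiff. SpG, 62.8 in eL/L/Z, 58.3 in diff. SpG, 57.7 in pL and 20.4-43.0 in the others. Nfya-CKO SpG took 173, and 172 of the 180 genes were higher there than in each of the 10 populations, so the pattern was shared with them. In 25 of the 180 genes Nfya-CKO SpG were also above undiff. SpG, as for Gfra1 (1.20 against 1.08).

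The 15 genes with the largest ratios included transcription factors, receptors and a channel. Foxf1, a forkhead factor gene, was at 2.81 in undiff. SpG and at 0.01-0.25 in all others, an 8.27-fold ratio to the next population. Glis3, a zinc finger factor of the GLI family, was at 5.38 with a 7.65-fold ratio, and the early growth response factor Egr4 at 4.16 with a 6.50-fold ratio. Ret was at 2.30 and 5.81-fold above other somatic cells. The homeobox factor Onecut2 (1.70), the transcription elongation gene Aff3 (4.28), the glycosyltransferase gene Large2 (1.58), the complement regulator Susd4 (2.14), Cd274, which encodes the immune checkpoint ligand PD-L1 (1.30), and the nicotinic receptor subunit Chrna4 (0.72) had ratios of 4.80-6.27. The synaptic scaffold gene Shank3 (1.37) and Fbxo41 (1.5) each had a row of a piRNA-producing locus beside their own, with the same values, and 5 of the 180 genes were rows of that kind.

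**Figure D3:**
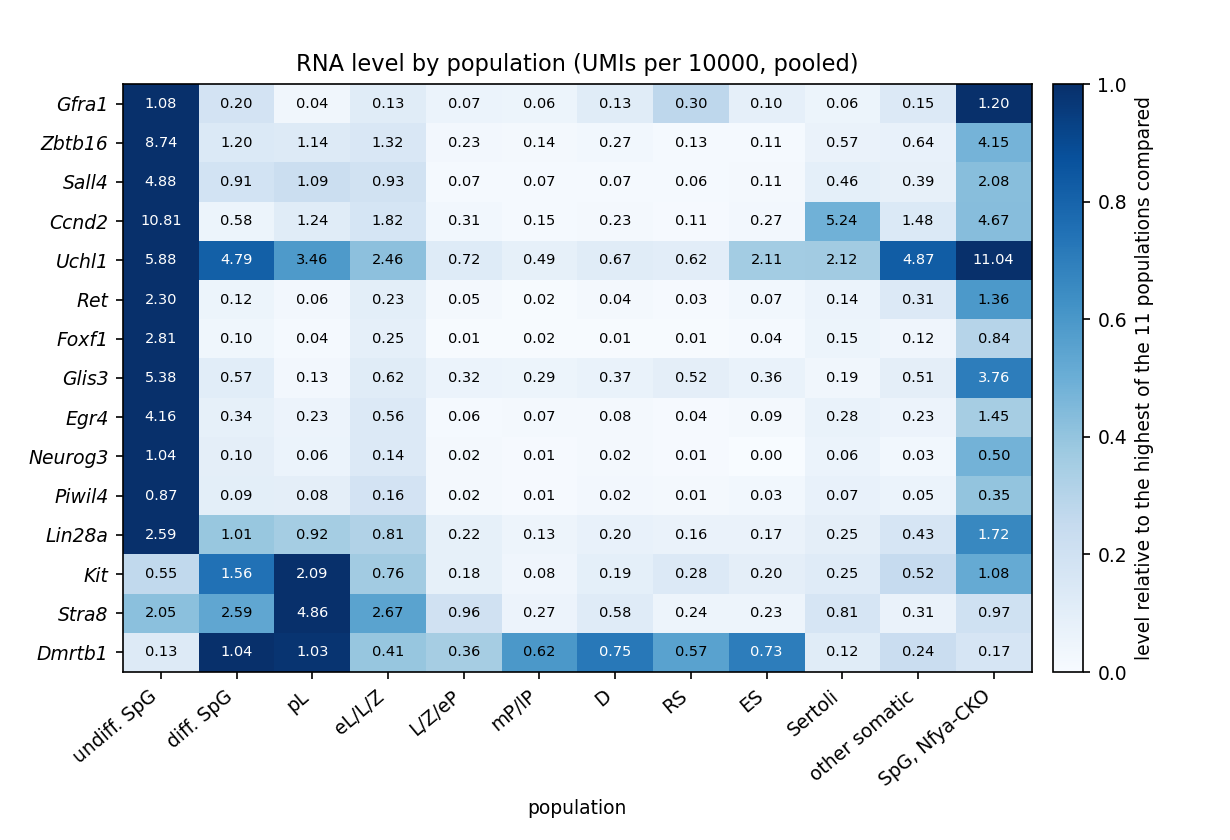
Pooled UMIs per 10000 for 15 named genes (rows) in the 11 populations and in Nfya-CKO SpG (columns); shading gives the level relative to the highest of the 11. Among the 11 populations the first 12 genes are darkest in undiff. SpG, while Kit, Stra8 and Dmrtb1 are darkest in diff. SpG or pL. Levels above the highest of the 11 have its shade, as for Gfra1 and Uchl1 in Nfya-CKO SpG.

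The 2 genes below all others were Evi5l, at 0.24 against 0.62-2.02, and the scaffold gene Spag9, at 0.88 against 1.88-4.85. Next lowest were the general transcription factor subunit Gtf2a2 (0.65 against 1.32 or more), the RNA helicase Ddx17 (2.7 against 5.08 or more) and the chromatin remodelling subunit Smarcc2 (0.60 against 1.07 or more).

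Of 22 listed transcription factors of the stem cell pool 15 passed the level filter, 6 of these were at least 2-fold above all other populations (1.2% of all genes), and 12 were highest in undiff. SpG among the 9 germ cell populations, against 2834 of all 15036 genes (18.8%). The median log2 ratio to the median of the other germ cell populations was 2.73, against 0.0056 over all genes. With a pseudocount of 0.5 it was 1.54 for the 15 genes. Genes at low levels pass the filter only where they are high, so the counts and the median describe the 15 genes and not the list. The shares over all genes are thus no test of the list. The list was chosen with earlier results of these data known. It shares Zbtb16 and Sall4 with the markers of the population, and both are among the 6. Neurog3, which marks progenitors bound for differentiation, was at 1.04 and at 0.14 in eL/L/Z, the next population. Foxc2, a factor of quiescent stem cells, was at 0.62 against 0.06. Sall1, a relative of Sall4, was at 1.008 against 0.14. Foxo1 was at 5.35 against 2.18 in pL. Sox3, an X-linked factor of progenitors, was also highest at 6.17 but reached 3.31 in pL, and Pou3f1 was at 1.03 against 0.68.

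Not all factors linked to stem cells were highest in this population. Id4 was at 0.68, below mP/lP at 1.57. Etv5, a GDNF target that Sertoli cells also express, was at 0.76, below other somatic cells at 1.03. Taf4b was at 1.04 and highest in pL (1.636), and Dmrt1 was at 3.76, below diff. SpG at 4.43. The 7 members under the filter were not ranked, so they are not placed among the factors just named. They were at low levels, among them Bcl6b (0.28), Lhx1 (0.27), Eomes (0.13) and Pax7 (0.12).

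Of 22 listed receptors and surface proteins 18 passed the filter, 4 were at least 2-fold above all others (1.2% of all genes) and 12 were highest among the germ cells (18.8% of all genes), with a median log2 ratio of 2.03 over these 18 genes, or 1.21 with a pseudocount of 0.5. The limit given for the stem cell factors holds here too. The list also held the intracellular markers Ccnd2 and Uchl1, and the 4 genes were Ret, Mcam and the population's own markers Gfra1 and Ccnd2. The adhesion gene Mcam was at 2.28 against 0.92 in pL. The insulin-like growth factor receptor gene Igf1r was at 8.75 against 4.61 in Sertoli cells, the tetraspanin gene Cd9 at 1.27 against 0.72 in pL, and Fgfr1 at 0.82 against 0.54. Surface markers often used to sort these cells were less selective. Itga6 was at 1.33 with Sertoli cells at 2.96, Itgb1 at 2.17 with Sertoli cells at 3.59, and Epcam at 1.16 with diff. SpG at 3.39. Thy1 (0.06) and Cdh1 (0.10) did not pass the filter, and Fgfr2 was nearly flat, at 5.70 in undiff. SpG and 5.10-7.43 in the others.

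Of 24 tested genes of GDNF and FGF signalling, 4 were at least 2-fold above all other populations (the marker Gfra1, Ret, Spry4 and Etv4), against 1.2% of all genes, 13 were highest among the germ cells, against 18.8%, and the median log2 ratio was 1.02. The feedback inhibitor gene Spry4 was at 0.49 against 0.16 in other somatic cells, and the transcription factor gene Etv4 at 0.35 against 0.05 in diff. SpG. Dusp6, a phosphatase that dampens this signalling, was at 1.008 and at 0.03-0.29 in the other germ cells, but at 2.96 in Sertoli cells. Shared components of the cascade differed less: Nras was at 1.67 and at 1.71 in pL, and Map2k1 at 1.08 and 1.19.

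Of 30 genes of G1/S and replication, 7 were highest among the germ cells, close to the 18.8% of all genes. The marker Ccnd2 was the 1 gene at least 2-fold above all others (1.2% of all genes). The median log2 ratio of the 30 genes was 0.98. Their summed level was 36.8 UMIs per 10000 in undiff. SpG against 37.0 in pL and 28.5 in diff. SpG. The D-type cyclins did not share a population. Ccnd2 was highest in undiff. SpG, as was Ccnd3 (2.52 against 1.44 in RS), whereas Ccnd1 was at 1.48 and highest in pL at 4.39. Several replication genes were highest in pL, with Mcm5 at 1.84 against 3.14, Fen1 at 1.5 against 2.38 and Rrm2 at 0.21 against 0.99. For G2/M the median over 26 genes was 0.04 with 1 highest among the germ cells, Ccnb1 (0.95 against 0.87 in pL). Mki67, a marker of cycling cells, was at 1.79, below 4.32 in diff. SpG and 5.99 in L/Z/eP, and Top2a at 3.34, below 7.21 in pL. Of 10 CDK inhibitors and RB family genes, 1 was at least 2-fold above all others (1.2% of all genes). This was Cdkn1c, 2.31-fold above (0.45 against 0.14 in pL). Cdkn1b was at 1.21, highest among the germ cells and below Sertoli cells (1.70). Of the 10 genes 3 were highest among the germ cells (18.8% of all genes). The median log2 ratio of the 10 genes was -0.16, and 4 were above 0, as were 7562 of all 15036.

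Of 14 tested RNA-binding proteins of germ cells, 4 were highest among the germ cells, against 18.8% of all genes, or 2 with a level filter of 0.2, and the median log2 ratio was 0.52. Lin28a, which blocks let-7 maturation, was at 2.59 against 1.012 in diff. SpG. It was the only one of the 14 at least 2-fold above all others (1.2% of all genes). Its paralogue Lin28b was at 1.43 and highest in pL at 2.90. Nanos3 was at 0.20 against 0.08, while Nanos2 (0.0986) was under the filter. Dazl, a translational regulator of all early germ cells, was at 13.2 against 17.5 in pL. Trim71, which is not on the list, was at 8.16 against 1.71 in pL.

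Among 16 genes of the piRNA pathway and transposon silencing, 2 were at least 2-fold above all other populations, against 1.2% of all genes, and 4 were highest among the germ cells, against 18.8%, or 2 with a level filter of 0.2. Piwil4 (MIWI2), the nuclear PIWI protein that directs methylation of transposons in fetal germ cells, was at 0.87 in undiff. SpG and at 0.01-0.16 in the others. Morc1, a silencer of the same pathway, was at 1.73 against 0.47 in eL/L/Z. Tex19.1 (1.53 against 0.98 in pL) and Spocd1 (0.53 against 0.31 in D) were also highest here. The other PIWI genes on the list were highest in mP/lP, Piwil1 at 11.4 against 0.71 in undiff. SpG and Piwil2 at 4.98 against 3.18. Tex15, which recruits silencing to transposons, was at 11.0 and highest in eL/L/Z (17.3).

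In the list of retinoid signalling and differentiation, 15 of 22 genes were above the median of the other germ cell populations, as were 7562 of all 15036. At least 2-fold lower were 2 against diff. SpG, where 10.2% of all genes were, and 4 against pL, where 2.82% were. The 1 gene at least 2-fold above all others (1.2% of all genes) was Sohlh1, a factor that opens differentiation, at 1.75 against 0.82 in diff. SpG. The receptor genes Rarg (0.73 against 0.63 in diff. SpG) and Rxra (0.65 against 0.38 in other somatic cells) were highest here too. Rara was at 0.62 and highest in Sertoli cells (0.96). Sohlh1, Rarg and Rxra were the only 3 of the 22 genes highest of all populations compared, near the 13.9% of all genes. Of 20 genes of DNA methylation and Polycomb none was at least 2-fold above the others, and the median was 0.21. Dnmt1 was at 3.29 against 5.17 in pL and Dnmt3b at 1.28 against 1.60, while Cbx2, a Polycomb subunit, was highest in undiff. SpG at 1.52 against 1.14.

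Factors of embryonic pluripotency were mostly under the filter, as 7 of 16 passed it. Lin28a (above) was the 1 gene at least 2-fold above all others (1.2% of all genes). Of the 7, 4 were highest among the germ cells (18.8% of all genes). Their median log2 ratio was 1.04, or 0.45 with a pseudocount of 0.5, and the limit given for the stem cell factors holds here too. Pou5f1 (0.03), Nanog (0.01), Sox2 (0.02) and Myc (0.01) were all near 0. Mycn was at 0.66 against 0.57 in Sertoli cells, and Dppa4 at 0.34 against 0.14 in mP/lP. In glycolysis (19 genes, median log2 ratio -0.35) genes differed in direction. Gpi1 was highest here at 2.41 against 1.40 in pL, and Slc2a1, a glucose transporter, at 0.49 against 0.39 in Sertoli cells. The testis-specific Ldhc was at 0.58 against 11.7 in mP/lP, and the glucose transporter Slc2a3 at 0.99 against 11.1.

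**Figure D4:**
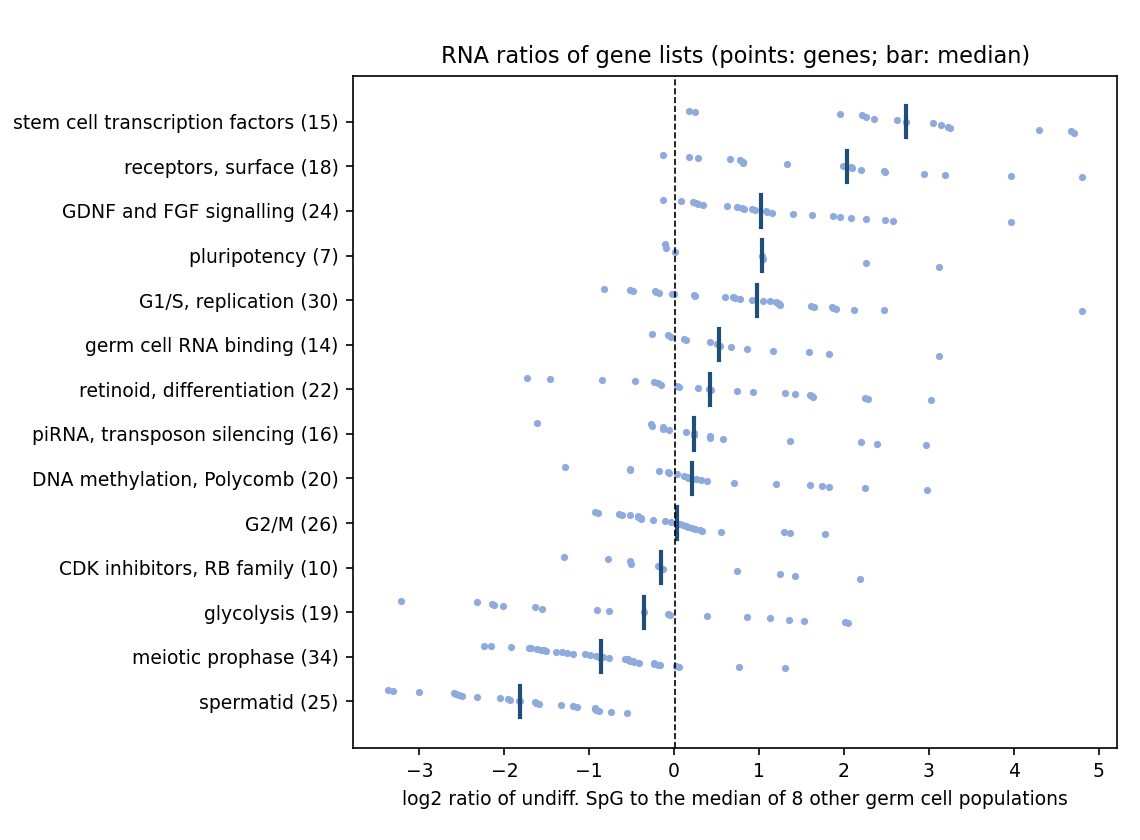
Log2 RNA ratio of undiff. SpG to the median of the 8 other germ cell populations for each tested gene (points) of 14 gene lists, with the median as a bar, the number of genes in brackets and the median of all genes as a dashed line. Medians run from 2.73 for stem cell transcription factors to -1.81 for spermatid genes.

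Summed markers of other cells were lower than in the cells they mark. Of 34 genes of meiotic prophase none was highest in undiff. SpG and the median log2 ratio was -0.86. The synaptonemal complex gene Sycp3 was at 0.67, against 3.82 in mP/lP, and Meioc, needed for the extended prophase, at 0.41, against 2.65. Sycp1 was read at 5.74, but at 25.3 in L/Z/eP. For 25 spermatid genes the median was -1.81, or -0.93 with a pseudocount of 0.5. The list summed to 4.91 UMIs per 10000 against 2.04-220 in the others. The protamine gene Prm1 was at 0.16 and at 40.8 in ES. Markers of Sertoli cells summed to 9.81 in undiff. SpG against 155 in Sertoli cells and 5.92-65.8 in the other germ cells, with Clu at 2.50, Aard at 1.53 and Inha at 1.09. Leydig cell markers summed to 0.249 against 228 in other somatic cells, with Insl3 at 0.06. Markers of peritubular, endothelial and blood cells summed to 0.831 against 10.4, with C1qa at 0, and Pecam1 (0.138) and Cdh5 (0.0905) were the 2 of 10 tested that were highest among the germ cells, near the 18.8% of all genes and 0 with a level filter of 0.2. The part of these cells in any level was not tested.

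Diff. SpG, the next stage by name, were 84.6% Cre/+ cells, so stage and age cannot be told apart in this comparison. RNA of 1006 of 14264 genes (7.05%) was at least 2-fold higher in undiff. SpG and RNA of 1459 (10.2%) at least 2-fold lower. With a pseudocount of 0.5 the balance turned, with 284 higher and 230 lower. Ccnd2 (10.81 against 0.58), Foxf1 (2.81 against 0.10), Ret (2.30 against 0.12), the zinc finger gene Zfp462 (4.45 against 0.35) and Egr4 (4.16 against 0.34) were furthest above. Among stem cell factors 10 of 15 were at least 2-fold higher and none lower, and among GDNF and FGF signalling genes 9 of 24. The 5 genes furthest below were Prm1 (0.16 against 3.94), Tnp2 (0.20 against 3.21), Chl1 (0.36 against 4.59), Asxl3 (0.98 against 10.7) and Odf1 (0.15 against 2.36). Prm1, Tnp2 and Odf1 encode proteins of the spermatid nucleus and tail, and 23 of 25 spermatid genes were at least 2-fold lower in undiff. SpG, with a median log2 ratio of -1.94. Spermatids were 77.1% (RS) and 99.7% (ES) Cre/+ cells, from the same library as most diff. SpG, and the part of RNA from them was not tested.

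Both undiff. SpG and pL were mostly juvenile (99.7% for pL). Here 998 of 13069 genes (7.64%) were at least 2-fold higher in undiff. SpG and 369 (2.82%) at least 2-fold lower. Glis3 (5.38 against 0.13), the potassium channel gene Kcnc2 (3.15 against 0.04), Foxf1 (2.81 against 0.04), Ret (2.30 against 0.06) and Egr4 (4.16 against 0.23) were furthest above. Zfp286os (0.12 against 2.57), the X-linked homeobox gene Esx1 (0.38 against 4.62), the protease gene Prss50 (0.60 against 4.16), Elavl3 (0.25 against 1.66) and Meioc (0.41 against 2.37) were furthest below. The name Zfp286os marks it as an opposite strand transcript, whose reads may not be separable from those of its partner. Of the stem cell factors 9 were at least 2-fold higher than in pL, and of the replication genes 3 were higher and 6 lower. At least 2-fold above both diff. SpG and pL were 591 genes, which are 58.7% of those above diff. SpG and 59.2% of those above pL, and the comparisons share the undiff. SpG value.

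Among the 10 other populations, undiff. SpG were most like pL over all genes. Spearman's rho of RNA levels across 15036 genes, which are not independent of each other, was 0.92 with pL, 0.91 with eL/L/Z and 0.84 with diff. SpG, and lowest with RS at 0.34. With Nfya-CKO SpG it was 0.91, and these had fewer genes at least 2-fold apart from undiff. SpG (1074) than pL had (1299). In scATAC, across 21823 genes, it was 0.97 with pL, 0.95 with eL/L/Z and 0.94 with diff. SpG, and lowest with ES at 0.76. In scRNA-seq, juvenile libraries gave 92.0% of undiff. SpG, 99.7% of pL, 98.6% of eL/L/Z and 15.4% of diff. SpG. Stage, age and library therefore cannot be told apart in this order.

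The scATAC value of a gene was compared on a scale of 1000000 per population, without mitochondrial genes, which took 40.6% of the signal in undiff. SpG and 31.2-64.5% in the others. Its populations carry the RNA names, among them pL and diff. SpG, which the chromatin names lack. Which cells were pooled is not stated. In scATAC-seq 1230 cells had the name undiff. SpG by RNA. Of these, 917 had it by chromatin too and 210 were named eL/L/Z by chromatin. The methods of the study define promoter accessibility as coverage close to the TSS on depth-normalised tracks; whether this scATAC matrix, which is scaled otherwise, counted the same region is not stated in the sources used here. Of 21823 genes, 710 (3.25%) were at least 1.5-fold above all 10 other populations and 32 (0.147%) below all of them, and 3508 (16.1%) were highest in undiff. SpG. With mitochondrial genes in the sum 418 were above and 2 below, and with a pseudocount of 5 also 2 were below. With Nfya-CKO SpG and the unknown cells among the populations compared, 7 genes were left. The 10 genes with the largest ratios included Zscan5b (29.5), Slc13a4 (31.6), Asphd2 (51.8), Slc26a3 (24.8) and Fetub (32.3), with log2 ratios of 1.37-1.72 to the next population. Of these 5 genes Asphd2 was also high in RNA (0.63 against 0.11), while the RNA of the others was at 0.04-0.06.

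RNA and scATAC values were high in the same genes more often than over all genes. In both assays 14207 genes were tested, and 169 of them had RNA at least 2-fold above all other populations. Of these 169, 110 (65.1%) had their highest scATAC value among the 11 populations in undiff. SpG too, against 9.90% of the 14207, and 36 (21.3%) were at least 1.5-fold above all others, against 1.60%. These 36 were 15.8% of the 228 genes so called in scATAC among the 14207. They include rows of piRNA-producing loci that stand beside the rows of Shank3, Fbxo41 and Trim71, so some loci count more than once. The scATAC log2 ratio to the median of the other germ cells was above 0 for 160 of the 169 genes (94.7%) and for 43.5% of all, with medians of 1.02 and -0.07. Across the 14207 genes Spearman's rho between the 2 ratios was 0.37. Both matrices carry the names of the scRNA-seq populations, and no test was made on these pooled values.

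Gfra1 and Ret, the pair of GDNF receptor genes, were among the 36. The scATAC value of Gfra1 was 66.8, with a log2 ratio of 0.998 to the next population (pL), and that of Ret 65.1, with 1.07 to diff. SpG. Foxf1 was at 82.2 (1.07), Glis3 at 70.1 (0.94), Sall4 at 73.1 (0.59), Trim71 at 87.9 (0.68), Piwil4 at 21.3 (1.08) and Morc1 at 27.7 (1.04), with the log2 ratio to the next population in brackets. Further genes of the 36 were Rspo2 (RNA 0.58 against 0.10), Sfrp2 (0.54 against 0.09) and Dkk3 (0.62 against 0.15). So were the homeobox gene Six4 (0.52 against 0.07) and Tcl1 (0.46 against 0.06). Other RNA-high genes did not pass in scATAC. Egr4 was at 90.2 (0.52), Neurog3 at 37.1 (0.55) and Zbtb16 at 105 (0.34), all highest in undiff. SpG but under 1.5-fold. Ccnd2 was at 109, just below Sertoli cells (-0.05), and Aff3 at 3.47, below RS (-1.40).

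**Figure D5:**
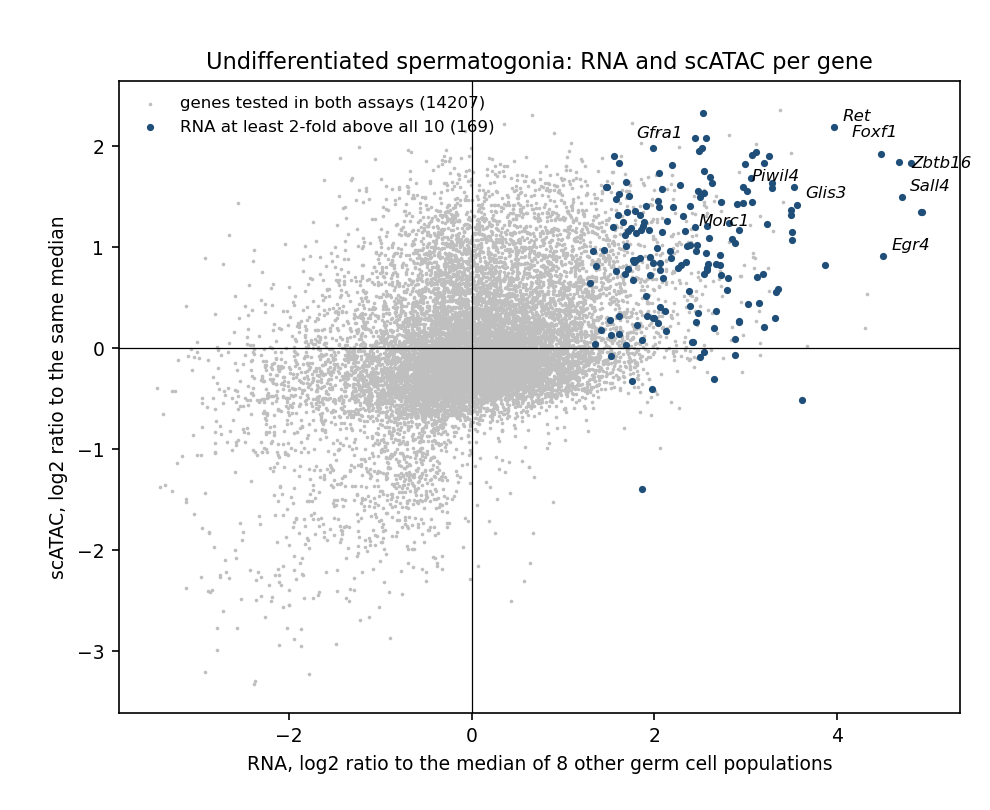
Log2 ratio of undiff. SpG to the median of the 8 other germ cell populations for each gene tested in both assays, in RNA (horizontal axis) and scATAC (vertical axis); blue points are the 169 genes with RNA at least 2-fold above all 10 other populations. Of the blue points 160 lie above 0 on the scATAC axis, against 43.5% of all genes.

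Genes of the X chromosome, which is silenced in pachytene, gave 2.24% of the UMIs of undiff. SpG, close to 2.47% in pL and 2.24% in eL/L/Z and above 0.555% in mP/lP. Of the 168 called genes with a RefSeq entry, 3 (1.79%) were on X, against 3.51% of the genes tested, while 118 of the 497 X genes tested (23.7%) were highest in undiff. SpG among the germ cells, against 18.8% of all genes. The share of scATAC signal on X was 1.47% in undiff. SpG and 1.29-1.91% in the others. The called genes were long, with a median of 46536 bases from start to end against 25513 for all tested genes.

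Of the NFY subunits, Nfya was at 0.46 in undiff. SpG and at 0.36-0.82 in the other populations. Nfya-CKO SpG were at 1.11, which goes against the direction of a deletion; which part of the gene the reads came from is not known, so this value does not check the label. Nfyb was at 0.64, below diff. SpG at 0.94, and Nfyc at 1.17, below pL at 1.73. Some genes of undiff. SpG differed in level between Nfya-CKO SpG and the controls. Uchl1 was at 11.0 there against 5.88, and Crabp1 at 3.33 against 0.79, while Foxf1 was at 0.84 against 2.81 and Zbtb16 at 4.15 against 8.74. These are 1 adult library against mostly juvenile cells, so genotype, age and library cannot be told apart.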

How the data were processed

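Nuclei of mouse testes were profiled with the BD Rhapsody system, as 1 library per assay for each of 5 ages or genotypes. For scRNA-seq, the authors aligned reads to mm10 with STAR 2.7.10b, collapsed UMIs, removed cells under 500 genes or with at least 5% mitochondrial UMIs, and clustered the cells with Seurat 5.2.1; DoubletFinder was used for doublets. For scATAC-seq, the authors aligned with BWA 0.7.12, shifted reads with bedtools 2.27.1 and filtered cells with ArchR 1.0.3 at 1000 fragments and a TSS enrichment of 4. Versions are those of the submitters' processing notes.

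The authors deposited per cell the counts of UMIs, genes and fragments, the percent of mitochondrial UMIs, the fraction of reads in promoters and TSS enrichment and nucleosome values, which are ratios. The deposited matrices hold 1 pooled value per gene for each of 13 populations on a natural log scale, as found from the values, whose reversed sums are 10000 per population; the authors log normalised the UMIs of each cell to 10000, and for their tracks merged the reads or fragments of each cell type and scaled them to depth; the matrices have another scale, and whether they come from that merging is not given in the sources used here, and no per-library values can be had from them. Of the per-cell columns 15 were not used.

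Python 3.11.15, numpy 2.4.6, pandas 2.3.3, scipy 1.17.1 and matplotlib 3.10.9 were used. RNA ratios used a pseudocount of 0.1, a mean of at least 0.05 and 2-fold; scATAC ratios used 1, a mean of at least 5 and 1.5-fold. Comparisons of 2 populations applied the RNA filter to the mean of both. Shares have exact Clopper-Pearson 95% intervals and a share of 0 the limit that 3 cells would give. No p-value was computed, since neither cells nor genes are replicates. The counting code was tested on simulated data. Gene lists and members were chosen with earlier results of these data known. Named genes were the 5 markers, list members, the 15 largest RNA ratios at a level of 0.5 or more, the 10 lowest where every other population was at 0.5 or more, the 10 largest scATAC ratios (at 20 or more), the 5 furthest in each direction from diff. SpG and pL, and genes called in both assays; Trim71 and those in both assays were chosen after their values were seen. Sequences, positions and lengths are RefSeq's for GRCm38.p6, which held 84.4% of the RNA genes. Alternatives covered cell filters, denominators, pseudocounts, level filters, folds and the populations compared.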

Additional observations from a re-analysis of the deposited data

How the results depend on the processing

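Of 136 alternatives, 8 of them added after seeing the data, 81 left a share within its interval, a count within 1.5 times or the ratio behind a log2 median within 1.5-fold, and 55 moved it. No ratio changed sign, but the balance of genes higher and lower than in diff. SpG turned with a pseudocount of 0.5. No paired analysis was possible because each age or genotype was 1 library per assay and the gene values were pooled over libraries. The cause of a moved value was not tested, except that a stricter filter or fold leaves fewer genes by construction. Leaving out libraries was possible for the cell names alone.

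With cells of at least 1000 genes, the RNA shares were 11.9, 10.2, 2.26 and 1.25% at 11, 17 and 25 dpp and in Cre/+. Over germ cells they were 20.5% at 11 dpp and 8.16% at 17 dpp, and without the poorer of 2 cells with 1 number the 17 dpp share was 7.94%. With 3000 fragments or more, the chromatin shares were 16.0, 8.04, 0.0821 and 3.37%, and at a TSS enrichment of 8 they were 7.30% at 11 dpp and 3.44% in Cre/+. Cells with the same name in both assays were 93.4% without the 25 dpp library.

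For RNA above the 10 other populations (180 genes), the count was 52 with a pseudocount of 0.5, 95 with a mean of at least 0.2, 453 at 1.5-fold, 53 at 3-fold, 324 against the 8 germ cell populations and 28 with Nfya-CKO SpG and unknown cells added. For RNA below them (2 genes) it was 6 with a pseudocount of 0.05, 0 with 0.5, 30 at 1.5-fold, 0 at 3-fold, 13 against germ cells and 0 with the added populations.

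For scATAC above (710 genes) the count was 123 with a mean of at least 20, 124 at 2-fold, 418 with mitochondrial genes in the sum, 1334 against germ cells and 7 with the added populations. For scATAC below (32 genes) it was 2 with a pseudocount of 5, 54 with 0.5, 3 with a mean of at least 20, 0 at 2-fold, 2 with mitochondrial genes, 90 against germ cells and 5 with the added populations.

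Against diff. SpG, 284 genes were higher and 230 lower with a pseudocount of 0.5, 293 and 412 at 3-fold, and 928 lower with a mean of at least 0.2. Against pL, 208 were higher and 63 lower with a pseudocount of 0.5, 284 and 53 at 3-fold, and 653 higher with a mean of at least 0.2. With a mean of at least 0.2, 2 RNA-binding, 2 piRNA and 0 peritubular, endothelial and blood cell genes were highest among the germ cells. With a pseudocount of 0.5 the medians were 1.54 for stem cell factors, 1.21 for receptors, 0.45 for pluripotency, 0.60 for GDNF and FGF signalling, 0.59 for G1/S, -0.11 for glycolysis, -0.05 for CDK inhibitors and -0.93 for spermatid genes.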
